A study of Mus musculus with 9 samples.

Results

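The Fc gamma receptors and their signalling chain were followed across 9 RNA sequencing libraries of RAW264.7, a macrophage line of mouse origin. RANKL, the cytokine behind osteoclast formation, turns these cells into osteoclast-like ones. The members were the gene rows with the symbols Fcgr1, Fcgr3 and Fcgr4 (activating receptors), Fcgr2b (the inhibitory receptor) and Fcer1g (the signalling chain), 5 of 23282 rows. By the labels the cells are of BALB/c origin, were used at passage 30 and were treated for 4 days, and each group had 3 libraries. The negative control (NC) received RANKL alone at 50 ng/mL, and the surface protein-treated cells (SF) received RANKL at 50 ng/mL with 10 µg/mL of proteins extracted from the surface of Propionibacterium freudenreichii MJ2. The third group (MJ) received heat-killed MJ2 at 10000000 cells/mL, and whether RANKL was added to each of these libraries is not spelled out in the labels. All libraries come from 1 cell line, and no label says that replicates were separate cultures, so p-values measure only the spread between these samples. The study names Fcgr1, Fcgr2b and Fcgr3 among genes it picked from the same libraries, so their direction here is not independent evidence.

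Fc gamma receptors bind the constant part of IgG and let phagocytes take up or attack what the antibody has coated. Fcgr1 encodes the high-affinity receptor, Fcgr3 a low-affinity one that prefers immune complexes, and Fcgr4 a receptor of intermediate affinity. These activating receptors do not signal alone: they pair with Fcer1g, the common gamma chain, whose ITAM motif is phosphorylated by Src family kinases and then recruits the kinase Syk. Fcgr2b instead carries its own ITIM motif, which recruits the lipid phosphatase encoded by Inpp5d and damps the activating signal. Fcer1g also serves receptors other than those for IgG, and with its relative Tyrobp it provides the ITAM signal that osteoclast precursors need beside RANKL.

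Fcgr2b, Fcgr4 and Fcgr3 lie side by side on chromosome 1 (GRCm38, GENCODE M21), from 170958617 to 171064935, a stretch of 106.3 kb. Fcer1g lies 164.6 kb further on, at 171229572 to 171234365, and Fcgr1 is on chromosome 3, at 96282909 to 96293969. The bases before the RefSeq start of the 3 activating receptors are printed because the receptors of this family did not move alike, and they show which letters differ between their promoters. Only the stretch outside annotated exons is given, 5′ to 3′ on the strand of the gene, with matches to the motifs searched in capitals.
Fcgr1 (chr3:96293970-96294219, minus strand): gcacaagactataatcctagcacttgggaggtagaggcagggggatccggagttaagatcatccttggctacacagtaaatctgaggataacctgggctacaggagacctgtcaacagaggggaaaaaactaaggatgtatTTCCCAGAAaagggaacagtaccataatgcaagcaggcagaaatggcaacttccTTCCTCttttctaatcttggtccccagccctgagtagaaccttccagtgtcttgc
Fcgr3 (chr1:171059404-171059626, minus strand): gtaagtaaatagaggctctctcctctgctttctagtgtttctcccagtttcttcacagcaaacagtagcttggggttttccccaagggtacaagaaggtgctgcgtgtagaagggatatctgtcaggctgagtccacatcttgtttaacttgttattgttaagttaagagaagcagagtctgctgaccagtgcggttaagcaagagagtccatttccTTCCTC
Fcgr4 (chr1:171018676-171018919, plus strand): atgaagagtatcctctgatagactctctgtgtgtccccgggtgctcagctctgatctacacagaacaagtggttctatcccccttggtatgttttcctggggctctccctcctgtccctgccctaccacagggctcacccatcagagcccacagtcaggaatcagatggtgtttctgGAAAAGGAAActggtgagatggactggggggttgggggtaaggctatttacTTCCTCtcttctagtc
The motifs were GAS (TTCNNNGAA), the ISRE core (GAAANNGAAA, read by IRF factors), the PU.1 core (GAGGAA), NF-kB (GGGANNTTCC) and AP-1 (TGANTCA), searched on both strands from 250 bases before to 50 bases after the start, and no matches overlapped. The Fcgr1 promoter held a GAS match at position -109 and a PU.1 core at -55. In the Fcgr4 promoter there was an ISRE core at -73 and a PU.1 core at -22, and in that of Fcgr3 a PU.1 core at -6. The windows of Fcgr2b and Fcer1g held none of these letters, which says nothing about the factors themselves. Among 27025 RefSeq promoters of the same length, 8.47% held a GAS match, 3.49% an ISRE core, 28.3% a PU.1 core, 1.43% an NF-kB match and 7.93% an AP-1 match. The matches are a description of the sequence, not sites shown to be used.

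Values are the log2 values the authors deposited. Raising 2 to a value and subtracting 1 gives what is called adjusted reads here, since low values then step in about whole reads. These summed to between 5930926 and 6503682 per library, so precision at the low end is set by single reads: a library listed at 0 still allows 3 reads, a limit that covers counting error only. Reads come from mRNA 3′ ends, so levels can be set side by side across genes without a correction for length. The macrophage identity of the cells was checked on 9 markers: Csf1r, Cd68 and Lyz2 were the highest, Mrc1 stayed under 10 adjusted reads and Mertk was at 0 in all 9 libraries. The summed level of this list was 18200 to 19600 adjusted reads in NC, 24100 to 25300 in MJ and 19700 to 21200 in SF. Like sums in NC and SF hide opposite moves of single markers. Csf1r went from 8810 to 9880 in NC to 2660 to 4160 in SF. Lyz2 went from 420 to 1520 in NC to 4150 to 5910 in SF, and Adgre1, Itgam and Cd14 were also higher in SF. The 10 osteoclast markers summed to 20900 to 33100 in NC, 13900 to 16000 in MJ and 5260 to 7860 in SF. Fewer cells of a type and less RNA per cell cannot be told apart in such bulk samples.

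With RANKL alone the 4 receptors were low and Fcgr4 led them, while Fcer1g was among the most abundant transcripts. Fcer1g stood at a log2 value of 11.26 ± 0.10 (SD, n = 3), above 97% of the 11193 genes with signal. Fcgr4 followed at 6.58 ± 0.44, and its 3 libraries lay above all those of the next receptor. Fcgr3 (4.41 ± 0.99), Fcgr2b (3.90 ± 0.64) and Fcgr1 (3.07 ± 1.77) came next, and their libraries overlapped. With heat-killed MJ2 the order of log2 values was Fcer1g (11.53 ± 0.10), Fcgr2b (7.43 ± 0.68), Fcgr1 (7.11 ± 0.51), Fcgr3 (6.97 ± 0.27) and Fcgr4 (6.23 ± 0.58), and the libraries of each receptor overlapped those of its neighbour in that order. With surface proteins it was Fcer1g (12.15 ± 0.25), Fcgr1 (9.78 ± 0.15), Fcgr2b (8.80 ± 0.10), Fcgr4 (7.93 ± 0.61) and Fcgr3 (7.65 ± 0.63), where only Fcgr4 and Fcgr3 overlapped. Fcgr4 was thus the highest receptor in NC and the lowest in MJ, and Fcgr1 went from the lowest mean in NC to the highest in SF.

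**Figure D1:**
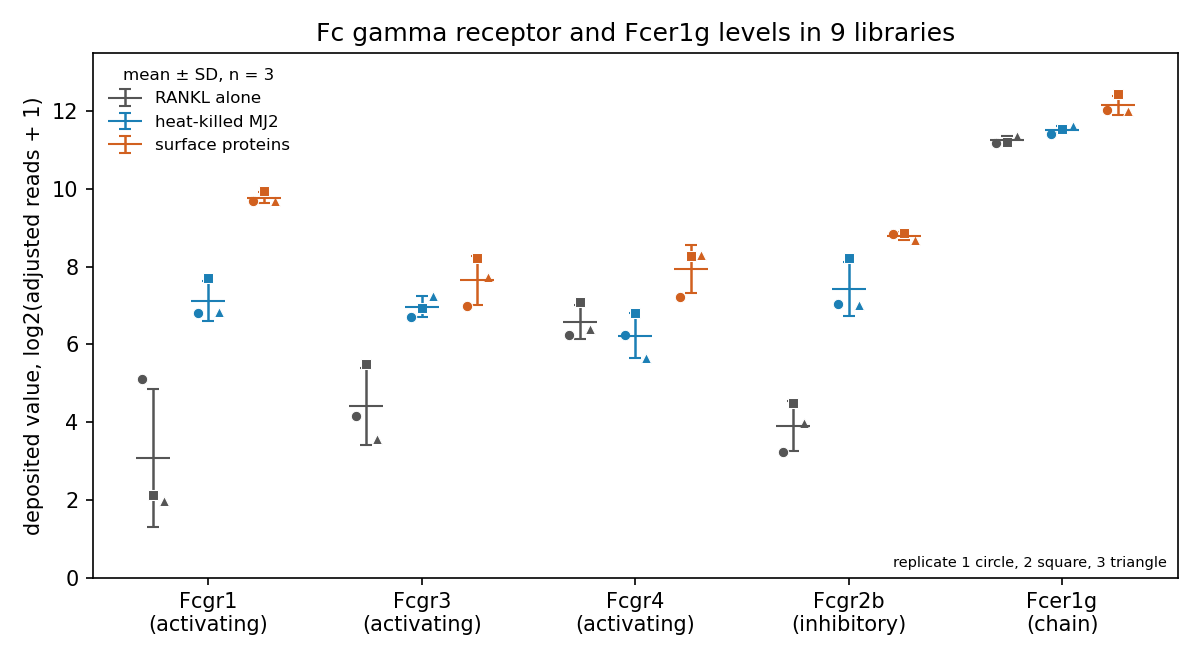
Deposited log2 value of each member in the 9 libraries, by group, with the mean and SD (n = 3) as bars and the replicate number as the symbol. In SF all 3 Fcgr1 libraries sit near 9.78, far above the NC libraries, Fcgr4 is the receptor with the least spread between groups, and Fcer1g lies above 11 throughout.

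Surface proteins were compared with RANKL alone to see which members moved when the extract was added. The 3 activating receptors and Fcgr2b were higher with surface proteins, and Fcer1g was higher by less than the fold required. In each comparison limma was fitted across all genes with Benjamini-Hochberg adjustment, and called genes are those whose adjusted p was under 0.05 with a fold of 2 or more. Of the 5 members 4 were called higher, where 10.2% of the 10874 genes tested were called higher and 17.5% in either direction. All 5 had every SF library above every NC library, against 24.7% of genes tested. All 5 passed the filter on low values, Fcgr1 and Fcgr2b only through their SF libraries, since 1 NC library of Fcgr1 and 2 of Fcgr2b reached 10 adjusted reads, so the count is a description. On a single gene an exact two-sided permutation test of 3 against 3 libraries cannot go below p = 0.1.

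Fcgr1 showed the widest change of the members. Its adjusted reads were 33.7, 3.35 and 2.95 in the NC libraries and 828, 986 and 828 in the SF libraries. NC replicate 1 stood apart from the other NC libraries, which were close to the limit of 3 reads, and the SF libraries lay close together. The log2 fold change was 6.71 (SE 0.83, 95% interval 4.71 to 8.70, adjusted p = 0.00306 from limma), which ranked 13 among 10874 log2 fold changes from the highest down. Without NC replicate 1 it was 7.73.

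Fcgr2b, the inhibitory receptor, came second. The NC libraries held 8.34, 21.7 and 14.8 adjusted reads and the SF libraries 460, 467 and 409. All SF libraries were far above all NC libraries and differed little among themselves. The log2 fold change was 4.90 (SE 0.32, 95% interval 4.11 to 5.68, adjusted p = 0.000448 from limma). Its interval overlapped that of Fcgr1, and the difference between their fold changes was not tested. An antisense gene, Gm38204, overlaps Fcgr2b, and since no source used here says whether reads were counted by strand, reads of this pair cannot be told apart.

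The low-affinity receptor Fcgr3 had 16.8, 44.3 and 10.9 adjusted reads in NC and 126, 301 and 211 in SF. The groups did not overlap, and the log2 fold change was 3.24 (SE 0.55, 95% interval 1.91 to 4.58, adjusted p = 0.00854 from limma). Fcgr4 had 74.9, 135 and 84 adjusted reads in NC and 149, 307 and 316 in SF. Here SF replicate 1 came close to NC replicate 2. The log2 fold change of Fcgr4 was 1.35 (SE 0.37, 95% interval 0.46 to 2.25, adjusted p = 0.0376 from limma). The Fcgr4 call did not hold in 5 of 16 alternatives (no filter on low values, and leaving out NC replicate 1 or 3 or SF replicate 2 or 3), with adjusted p from limma between 0.00274 and 0.113 over the alternatives.

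The signalling chain moved least. Fcer1g had 2340, 2370 and 2640 adjusted reads in NC and 4170, 5540 and 4080 in SF. Every SF library was above every NC library, and SF replicate 2 was the highest. The log2 fold change was 0.89 (SE 0.17, 95% interval 0.48 to 1.31), a fold of 1.86. Its adjusted p of 0.0126 from limma passed the threshold, which 29.1% of genes did with no limit on the fold, but the fold was under 2, so Fcer1g was not called.

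Heat-killed whole cells were compared with the same 3 NC libraries, so the 2 treatments against RANKL alone are not independent of each other. As the labels leave RANKL open for the MJ libraries, MJ and NC may differ in RANKL as well as in bacteria. Fcgr1, Fcgr3 and Fcgr2b were higher with heat-killed MJ2, and neither Fcgr4 nor Fcer1g was called. That is 3 of 5 members, where 3.37% of the 10814 genes tested were called higher and 4.26% in either direction. Fcgr1 and Fcgr2b again passed the filter only through the treated libraries, so this count too is a description. All 3 MJ libraries lay above all NC libraries for 4 of 5 members, against 15.4% of genes.

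Fcgr2b had the lowest adjusted p of the members here, with 131, 296 and 129 adjusted reads in the MJ libraries. MJ replicate 2 was the highest, the other MJ libraries were nearly equal, and all lay above the NC libraries. The log2 fold change of Fcgr2b was 3.52 (SE 0.45, 95% interval 2.44 to 4.61, adjusted p = 0.0121 from limma). For Fcgr1 the MJ libraries held 111, 208 and 113 adjusted reads, again highest in replicate 2, and the log2 fold change was 4.04 (SE 0.86, 95% interval 1.97 to 6.11, adjusted p = 0.0496 from limma). Fcgr3 had 104, 121 and 152 adjusted reads in MJ, and its log2 fold change was 2.56 (SE 0.49, 95% interval 1.38 to 3.74, adjusted p = 0.0378 from limma). These calls were less firm than those with surface proteins. The Fcgr1 call was lost in 9 of 15 alternatives, among them no filter on low values, the replicate number as a block and leaving out any library but NC replicate 1. Its log2 fold change ran from 3.49 to 5.06 over them, and was 5.06 without NC replicate 1. The Fcgr3 call was lost in 7 of 16 (no filter, the replicate block, and leaving out NC replicate 1 or 3 or any MJ library) and the Fcgr2b call in 1 of 15, without MJ replicate 1, where adjusted p from limma was 0.0527.

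Fcgr4 did not follow the other receptors in the MJ libraries, which held 74.7, 110 and 49 adjusted reads. They spread below and into the NC range, and the log2 fold change was -0.35 (SE 0.35, 95% interval -1.21 to 0.51, adjusted p = 0.611 from limma). The upper end of this interval lies below the lower ends for Fcgr1, Fcgr3 and Fcgr2b in the same comparison. Fcer1g had 2740, 3010 and 3130 adjusted reads in MJ, each above the NC libraries, and its log2 fold change was 0.27 (SE 0.13, 95% interval -0.05 to 0.59, adjusted p = 0.291 from limma).

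Between the 2 treatments, Fcgr1, Fcgr4 and Fcgr2b were higher with surface proteins than with heat-killed MJ2. Of the 5 members 3 were called higher, where 5.08% of the 10916 genes tested were called higher and 10.1% in either direction, and in 4 of 5 all SF libraries lay above all MJ libraries, against 22.2% of genes. If the MJ cells were given no RANKL, the 2 groups also differ in that, which the labels cannot settle. Fcgr1 differed most, by 2.67 on the log2 scale (SE 0.27, 95% interval 2.01 to 3.33, adjusted p = 0.00666 from limma), and this call held in all 16 alternatives. Fcgr4, which was not called with heat-killed MJ2, was higher with surface proteins by 1.71 (SE 0.40, 95% interval 0.73 to 2.68, adjusted p = 0.036 from limma). The difference of Fcgr2b was 1.37 (SE 0.34, 95% interval 0.55 to 2.19, adjusted p = 0.0403 from limma). The Fcgr4 call was lost in 6 of 16 alternatives (no filter, the replicate block, and without MJ replicate 1 or 3 or SF replicate 2 or 3), and the Fcgr2b call in 7 of 16 (no filter, the block, and without MJ replicate 1 or 3 or any SF library). Fcgr3 was the receptor whose treated groups overlapped, with a log2 difference of 0.68 (SE 0.34, 95% interval -0.13 to 1.49, adjusted p = 0.201 from limma). For Fcer1g the log2 difference was 0.62 (SE 0.17, 95% interval 0.21 to 1.03, adjusted p = 0.0515 from limma), and no SF library fell among the MJ libraries.

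**Figure D2:**
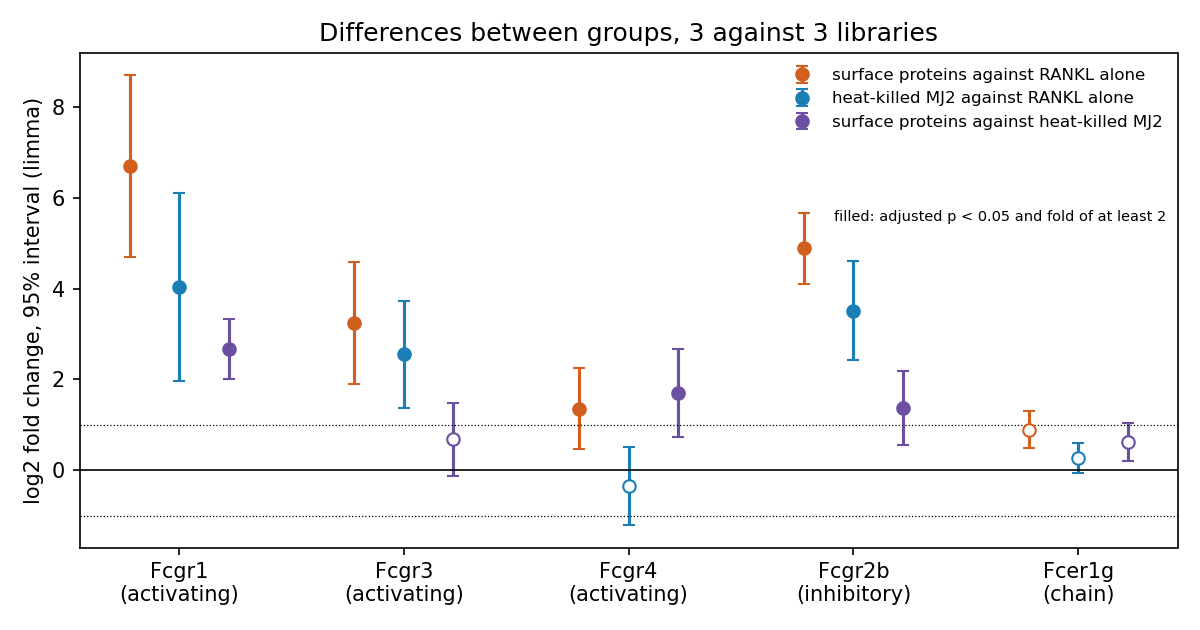
Log2 fold change of each member with its 95% interval from limma (3 against 3 libraries) for the 3 comparisons, with dotted lines at a fold of 2 and filled points for called genes. Fcgr1 and Fcgr2b are called in all 3 comparisons, Fcgr4 is near 0 in heat-killed MJ2 against RANKL alone, and no Fcer1g point is filled.

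The make-up of the receptors differed between the groups as well as their amount. The 4 receptors together held 113 to 204 adjusted reads in the NC libraries, 421 to 735 in the MJ libraries and 1560 to 2060 in the SF libraries. With RANKL alone Fcgr4 supplied most of them, 56%, 66% and 74.6% in the 3 libraries. In the MJ libraries this share was 17.8%, 15% and 11.1%, and in the SF libraries 9.51%, 14.9% and 17.9%, so the treated libraries overlapped each other and not the NC libraries. The Fcgr1 share was 47% to 53% in SF and 25.5% to 28.3% in MJ. In NC it was 25.2% in replicate 1 and 1.64% and 2.62% in replicates 2 and 3, a share that rests on 1 library.

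The inhibitory receptor took a larger part of the reads in both treatments. Fcgr2b was 6.24%, 10.6% and 13.1% of the receptor reads in NC, 31.1%, 40.3% and 29.1% in MJ and 29.4%, 22.6% and 23.2% in SF. Per read of Fcgr2b the activating receptors together held 6.60 to 15 adjusted reads in NC, 1.48 to 2.44 in MJ and 2.40 to 3.42 in SF. The MJ and SF libraries met in this ratio, at 2.44 in MJ replicate 3 and 2.40 in SF replicate 1, while every NC library was higher. As members were chosen with results known, no test was run on these scores.

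Each activating receptor stood differently against Fcgr2b. The log2 value of Fcgr4 minus that of Fcgr2b was 2.68 ± 0.31 (SD, n = 3) in NC, -1.20 ± 0.34 in MJ and -0.87 ± 0.67 in SF, so Fcgr4 was above Fcgr2b in every NC library and below it in every treated one. For Fcgr1 minus Fcgr2b the values were 0.98 ± 0.12 in SF and -0.31 ± 0.17 in MJ, positive in every SF library and negative in every MJ library. In NC it was 1.89 in replicate 1 and -2.38 and -2 in the other libraries, a spread wider than the differences between the group means. Fcgr3 minus Fcgr2b was 0.50 ± 0.80 in NC, -0.46 ± 0.77 in MJ and -1.15 ± 0.64 in SF, with overlap between MJ and both other groups.

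Fcer1g was in excess of the 3 activating Fc gamma receptors in all libraries, but by less where these were high. Its adjusted reads per read of the 3 activating receptors were 13 to 27 in NC, 6.84 to 9.98 in MJ and 3.01 to 3.78 in SF. The 3 ranges did not overlap. RNA reads give no count of protein, and the chain is shared with other receptors, which this ratio leaves out. Clec4d, 1 of these, held 126 to 312 adjusted reads in NC, 1820 to 2290 in MJ and 2110 to 3480 in SF.

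**Figure D3:**
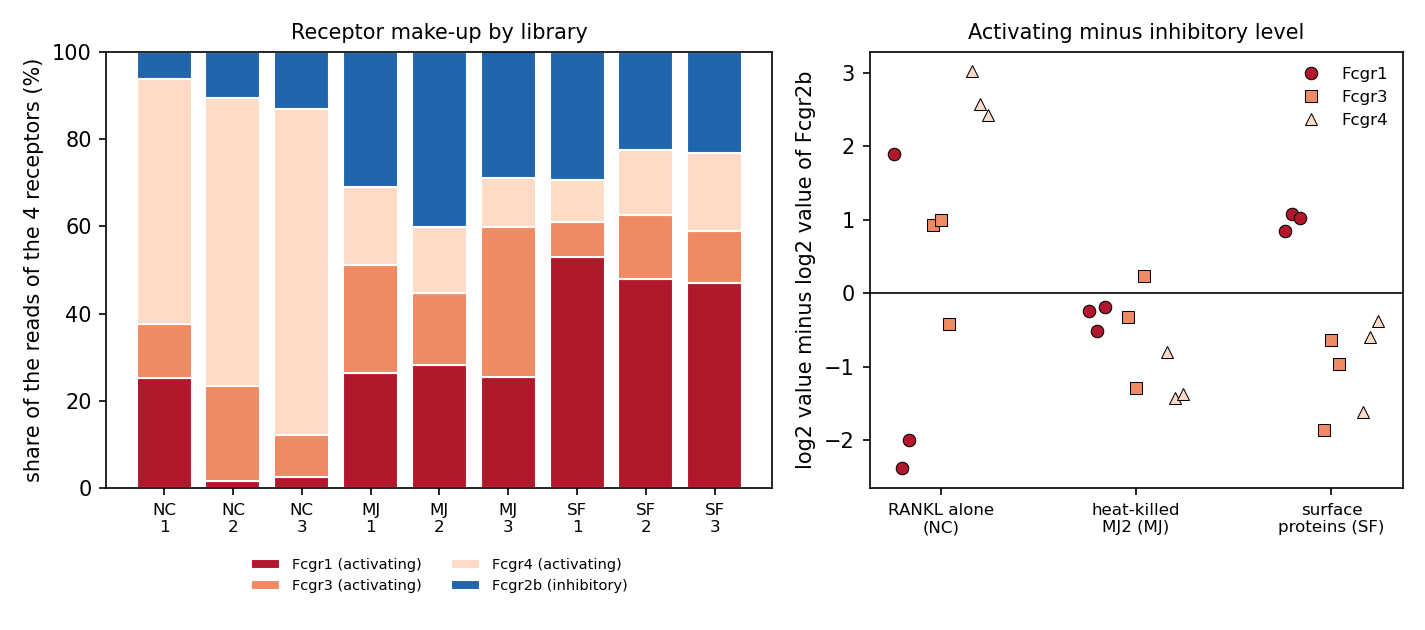
Left, share of the adjusted reads of the 4 receptors taken by each one in the 9 libraries (bars sum to 100%); right, log2 value of each activating receptor minus that of Fcgr2b, 1 point for each library. Fcgr4 fills 56% to 74.6% of the NC bars and at most 17.9% of the treated ones, and the Fcgr1 points are above 0 in SF and below 0 in MJ.

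The genes that work with the receptors were read from 8 lists with 105 genes in all. With surface proteins 16 of the 91 tested were called higher and 2 lower, 19.8% against 17.5% of all genes. With heat-killed MJ2 it was 7 higher and 0 lower of 87 by limma (8.05% against 4.26%), with 14 lower at an unadjusted p under 0.05. Of those 14, Trem2, Dok1, Dok3, Gsn and Wipf1 also had an adjusted p under 0.05, but a fold under 2. Between the treatments it was 9 higher and 2 lower of 89 (12.4% against 10.1%). For surface proteins and between the treatments these shares are close to those of all genes. The median log2 fold change of the tested genes on these lists was 0.12, -0.01 and 0.18 in the 3 comparisons, and that of all genes tested was -0.01, 0 and 0.03.

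Among 12 ITAM adaptors and partners of Fcer1g, 3 of the 10 tested were higher with surface proteins and 3 of 6 with heat-killed MJ2, with median log2 fold changes of 1.77 and 1.35. The C-type lectin receptors Clec4d and Clec4e, which signal through Fcer1g and sense microbial glycolipids, were higher in both. Clec4d rose by 3.54 (SE 0.39, adjusted p = 0.00219 from limma) with surface proteins and by 3.14 (SE 0.36, adjusted p = 0.00876) with heat-killed MJ2 on the log2 scale. The log2 fold change of Clec4e was 3.34 (SE 0.49) and 3.16 (SE 0.49). Both calls with surface proteins held in all 16 alternatives, while with heat-killed MJ2 that of Clec4d was lost in 1 of 16, without MJ replicate 1, and that of Clec4e in 5 of 16 (no filter, and without NC replicate 1 or any MJ library). Clec4n, the dectin-2 gene, was called with heat-killed MJ2 (3.19, SE 0.26) and not with surface proteins (0.84, SE 0.31, adjusted p = 0.0918 from limma), and the difference between the treatments itself was -2.35 (SE 0.29, adjusted p = 0.00876). Pira6, an activating paired immunoglobulin-like receptor, was called with surface proteins at 3.01 (SE 0.63), but it is low, at most 32.4 adjusted reads, and has close copies between which reads may be split. Its call was lost in 1 of 11 alternatives, with adjusted p from limma up to 0.0601. Tyrobp and Trem2, highly expressed throughout, had log2 fold changes of -0.17 and -0.40 with surface proteins and were not called.

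Of the 8 tyrosine kinases 3 were higher and 1 lower with surface proteins, and 0 of 8 were called with heat-killed MJ2 by limma. There 1, Lyn, had an unadjusted p under 0.05. It also passed on adjusted p (0.0419 from limma), but its fold of 1.61 was under 2. The medians of the log2 fold changes of the 8 kinases were 0.63 and 0.05. Fyn rose by 1.47 (SE 0.16, adjusted p = 0.00207 from limma), Lyn by 1.12 (SE 0.15, adjusted p = 0.00363) and Fgr by 1.08 (SE 0.29, adjusted p = 0.0349), while Src, which osteoclasts need for bone resorption, fell by 1.19 on the log2 scale (SE 0.27, adjusted p = 0.0211). The calls of Fyn and Lyn held in all 16 alternatives, and that of Fgr was lost in 9 of 16, among them leaving out any 1 library, with log2 fold changes down to 0.82 and adjusted p from limma up to 0.0913. The Src call was lost in 4 of 16, without NC replicate 2 or 3 or SF replicate 1 or 2. These are all Src family kinases, which phosphorylate ITAM and ITIM motifs. Syk had a log2 fold change of 0.29 (SE 0.14, adjusted p = 0.167 from limma) with surface proteins and 0.02 with heat-killed MJ2.

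Of 26 adaptors and effectors downstream of the ITAM, 4 of 25 tested were called with surface proteins, all higher, and the median log2 fold change was 0.50 there and 0 with heat-killed MJ2. The 4 were Card9, which links Syk to NF-kB (3.06, SE 0.59), the kinase Prkce (2.84, SE 0.41), the scaffold Gab2 (1.46, SE 0.25) and Vav1, an exchange factor for Rac (1.29, SE 0.17). With heat-killed MJ2 only Card9 was called, at 2.70 (SE 0.51, adjusted p = 0.0373 from limma), a call lost in 6 of 12 alternatives, among them leaving out NC replicate 1 or 2. The highly expressed Lat2, Akt1 and Grb2 were not called in either.

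On the inhibitory side 1 of 12 tested genes was higher with surface proteins and 1 of 13 with heat-killed MJ2, in both Pag1, which tethers the kinase Csk (1.67, SE 0.33, adjusted p = 0.0131 from limma, and 1.59, SE 0.32, adjusted p = 0.0424). Its call with surface proteins held in all 16 alternatives, and that with heat-killed MJ2 was lost in 10 of 16, among them leaving out any 1 library, with adjusted p up to 0.133. The medians of this list were -0.33 and -0.36. Inpp5d, the phosphatase gene through which Fcgr2b acts, had log2 fold changes of -0.39 (SE 0.14, adjusted p = 0.0823 from limma) and -0.36 (SE 0.12, adjusted p = 0.156). Ptpn6, a protein phosphatase of the same pathway, had 0.04 and -0.36. Neither was called, so Fcgr2b itself had the highest log2 fold change of the inhibitory side in both treatments.

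At the effector end Cybb, the catalytic subunit of the NADPH oxidase, rose with both treatments, by 2.60 (SE 0.38, adjusted p = 0.0051 from limma) with surface proteins and by 2.82 (SE 0.39, adjusted p = 0.0159) with heat-killed MJ2. The latter call was lost in 4 of 16 alternatives (no filter, and without any 1 MJ library). Cyba, Ncf1 and Ncf4 were not called in either (medians of the list 0.81 and 0.03). Among the 19 actin and phagocytosis genes, 1 was higher and 1 lower with surface proteins and 0 were called with heat-killed MJ2 by limma, where 4 had an unadjusted p under 0.05 (medians 0.02 and -0.01). Of those 4, Gsn and Wipf1 were lower at an adjusted p from limma of 0.0455 and 0.0338, with a fold under 2. With surface proteins Marcks, a substrate of protein kinase C at the membrane, was higher by 5.48 (SE 0.77) from 0 to 8.34 adjusted reads in NC. Gsn, the gene of an actin-severing protein, fell by 1.79 (SE 0.25). Arpc1b, Arpc2 and Rac2, the highest of the list, were not called.

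**Figure D4:**
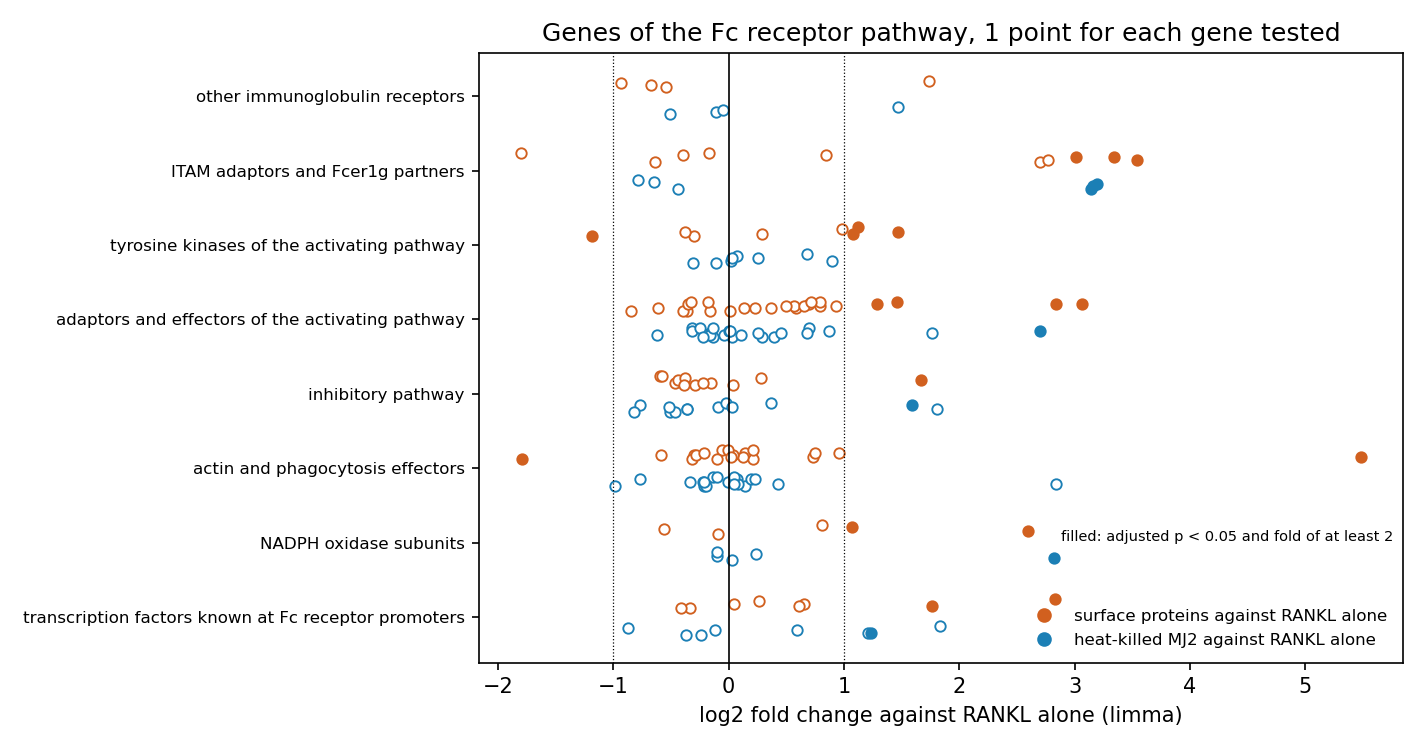
Log2 fold change against RANKL alone of each tested gene in the 8 lists, for surface proteins and heat-killed MJ2 (3 against 3 libraries), with dotted lines at a fold of 2 and filled points for called genes. Most points lie between the dotted lines, the lectin receptor points near 3 are filled for both treatments, and Marcks at 5.48 is the farthest.

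Of 8 transcription factors known at Fc receptor promoters, Irf8 and Cebpb were higher with surface proteins, by 2.83 (SE 0.46, adjusted p = 0.00756 from limma) and 1.76 (SE 0.34, adjusted p = 0.0125). With heat-killed MJ2 Irf8 had 1.83 (SE 0.50, adjusted p = 0.0914 from limma), and the medians of the list were 0.44 and 0.23. Spi1, which encodes PU.1, had -0.41 and -0.37 and was not called. None of this was tested against the motifs.

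The 14 other immunoglobulin receptors were mostly silent, 10 of them under 10 adjusted reads in all 9 libraries, and 0 of the 4 tested were called in either treatment against RANKL alone by limma, where 2 had an unadjusted p under 0.05 with surface proteins and 1 with heat-killed MJ2 (medians -0.61 and -0.08). The highest, Fcrl1, had a log2 fold change of -0.67 (SE 0.17, adjusted p = 0.0297 from limma) with surface proteins, under a fold of 2. The neonatal receptor gene Fcgrt had -0.54 and -0.51. Around the members in the genome, 18 neighbouring protein-coding genes that are no Fc gamma receptors were looked up, 6 were tested with surface proteins, 0 were higher and 1 was lower. This was Txnip, 264 kb beyond Fcgr1 (log2 fold change -1.80, adjusted p = 0.0101 from limma). With heat-killed MJ2 0 of 5 neighbours were called by limma, and 1 had an unadjusted p under 0.05.

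Cells other than macrophages also carry these receptors, so their markers were read. B cells carry Fcgr2b: Ms4a1 was at 0 in all 9 libraries, and the 6 B cell markers summed to at most 15.8 adjusted reads in NC, 5.88 in MJ and 31.9 in SF, most of it Cr2 (18.5 to 27.5 in SF), with Cd79b at up to 10.7 in SF. NK cells carry Fcgr3: 5 of 6 markers were at 0 in all libraries, and the sum, all Eomes, was at most 8.68 in NC, 28.6 in MJ and 21.5 in SF. All 6 mast cell and basophil markers were at 0. T cell markers summed to at most 6.73 in NC, 1.03 in MJ and 1.97 in SF. Of the neutrophil list 5 of 6 genes were matched, Elane and Mpo were at 0, and S100a8 made up nearly all of a sum of at most 0.117 in NC, 1900 to 2060 in MJ and 113 to 209 in SF. The 6 osteoblast and fibroblast markers summed to 3.58 to 76.2 in NC, 42.2 to 93 in MJ and 61.7 to 107 in SF. Of the osteoclast markers 7 of 9 tested were lower with surface proteins, where 17.5% of all genes were called in either direction. With heat-killed MJ2 3 of 9 were lower, against 4.26% of all genes in either direction, and Mmp9 (0.58) and Itgb3 (0.34) had positive log2 fold changes. Of the macrophage markers 4 of 7 tested were higher and 1, Csf1r, lower with surface proteins, and 3 of 7 were higher with heat-killed MJ2. The part of the osteoclast, macrophage and S100a8 changes in the receptor results was not tested.

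The genes closest to each member were found by the root mean square difference of their log2 profiles over the 9 libraries, each profile taken relative to its mean in NC, among 11192 other genes. Fcgr1 had no close match, the nearest being the channel gene Aqp9 at 0.89, then Galnt3 at 0.93 and Irak3 at 0.98. For Fcgr2b they were Gm8979 (0.39), C3ar1, the receptor for complement C3a (0.46), and Klra2 (0.49). Fcgr3 was nearest to Dgkh (0.35), Gda (0.38) and Samd9l (0.41), and Fcgr4 to Kdm5b (0.28), Hpgds (0.29) and Ypel5 (0.30). The profile of Fcer1g was matched most closely, by the sialidase gene Neu1 at 0.07, Ccdc59 at 0.11 and Wbp5 at 0.12. No member was among the nearest genes of another: the closest pair, Fcer1g and Fcgr4, differed by 0.63, and Fcgr2b and Fcgr3 by 1.26. Genes that barely move are close to many others by this measure, so these distances rank neighbours of 1 member and do not compare members.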

How the data were processed

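RNA sequencing data of 9 RAW264.7 libraries, 3 each of RANKL alone, heat-killed MJ2 and surface proteins, were used, with groups and replicate numbers taken from the sample titles. The authors deposited 1 log2 value per gene row and library, with 23282 rows and 35 symbols on more than 1 row. By the study's methods, libraries were made with a 3′ mRNA kit, sequenced as single-end reads of 75 bases and quantile normalized between samples, but the sorted columns differ by up to 1.6, so the scaling of the deposited log2 values is not known. The submitters' processing notes name Bowtie2, bedtools and mm10, and how reads shared between genes were counted is not given in the sources used here. In the last 500 bases of the longest transcript of each member, 0 of 426 windows of 75 bases were shared with another gene.

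Adjusted reads (2 raised to the value, minus 1) summed to 5930926 to 6503682 per library, and 1 read was worth 0.924 to 1.11 of them. No libraries of a group were identical. Differences were tested with limma 3.58.1 in R 4.3.3 (lmFit and eBayes, two-sided) on the deposited values, which already hold log2(value + 1), so a fold change of a low gene is understated. Each comparison used its own 6 libraries and the genes that reached 10 adjusted reads in 3 or more of them, with p-values adjusted over all genes tested. Medians of all log2 fold changes lay between -0.008 and 0.031. Code was tested on simulated data. Python 3.11.15, numpy 2.4.6, pandas 2.3.3 and matplotlib 3.10.9 were used for the other steps.

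Named genes were the members, all genes of the pathway lists called against RANKL alone with up to 3 of the highest others per list, the 3 nearest profiles of each member and the 3 nearest protein-coding genes on each side; a few others were named for their known role after their values were seen. The members and all gene lists were chosen with earlier results of these data known. Spi1, Oscar, Ncr1, Fcer1a and Ms4a2 are each on a pathway list and a marker list. Promoter sequences are from RefSeq on GRCm38.p6, matched by symbol for all 5 members, and positions from GENCODE M21. Alternatives were other scalings, filters, other constants in the log, a joint fit of the 9 libraries, the replicate number as a block, a robust trended prior, an unadjusted p and leaving out each library. Protein sequences were not used here.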

Additional observations from a re-analysis of the deposited data

How the results depend on the processing

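No member and no called pathway gene changed direction under any alternative run. Of 236 values recomputed for the 15 member fold changes, 201 stayed on their side of the threshold and 35 were lost, and of 545 for 36 pathway genes, 461 stayed and 84 were lost. Without 1 library Fcgr1 minus Fcgr2b in RANKL alone moved from -0.83 to between -2.19 and -0.05. With surface proteins against RANKL alone, 2 members in place of 4 were called when 10 adjusted reads were asked of every library, because Fcgr1 and Fcgr2b were then not tested, and 3 to 4 when a library was left out, with 1357 to 1822 genes against 1902. With heat-killed MJ2 against RANKL alone, 461 genes became 267 without a filter, 799 with an unadjusted p and 81 to 347 without 1 library (81 without MJ replicate 1), and 3 members became 1 without a filter, 1 with 10 adjusted reads in every library and 0 to 2 without 1 library. Between the treatments 1098 genes became 362 to 1176 without 1 library, and 3 members became 1 without a filter and 1 to 3 without 1 library. Deviations of same-numbered libraries correlated weakly, at 0.018 to 0.106, over 0.1 in 1 of 9 pairs. Those of differently numbered libraries correlated at -0.076 to 0.031, and every library correlated best with its own number. A weak effect shared by replicate number is thus left in the main fits, and its source was not tested. With the replicate block 4 members were called with surface proteins, 1 with heat-killed MJ2 (289 genes in place of 461) and 1 between the treatments. Except for the filter, the cause of these changes was not tested. Single reads limit Fcgr1, Fcgr2b and Fcgr3 in RANKL alone.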
